A study of Mus musculus with 93 samples.

Results

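Among 50 Tbx4 lineage+ cells of adult mouse lung, 11 carried at least 3 of 5 marker genes of mesothelium and 37 at most 1. Mesothelium is the cell sheet that covers the outer surface of the lung. Of the 37, 18 carried 1 marker and 19 none. A cell was called mesothelial-like when at least 3 of the 5 genes Msln, Upk3b, Upk1b, Nkain4 and Lrrn4 stood at 1 FPKM or more (fragments per length of transcript and per mapped reads, a level corrected for gene length and library size). It was counted among the other lineage+ cells when at most 1 of them did. In 2 further cells 2 markers passed, and these were set on neither side. The mesothelial-like cells made up 22% of the 50 (exact Clopper-Pearson 95% interval 11.5 to 36%, which, like every interval here, covers counting error over cells only).

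All cells on both sides came from adult C57BL/6 mice with the alleles Tbx4cre and RosaTm, in which Cre recombinase under the control of Tbx4 switches on a lasting reporter. Lineage+ therefore means that a cell or one of its ancestors had active Cre, not that it expresses Tbx4 at the time of sorting, and Tbx4 itself had no readable values. The protocol writes the gate as epcam+ CD31- CD45- 7AAD-, whereas the series calls the sorted cells mesenchymal. Epcam was detected (1 FPKM or more) in 1 of the 11 mesothelial-like cells, cell 27 at 314.5 FPKM, and in 0 of the 37 other lineage+ cells, and Pecam1 (CD31) was at 0 in all 50. Cells were caught singly in the wells of a Fluidigm C1 chip, and each gave 1 library. No label names an animal or a chip, so the 54 deposited lineage+ libraries count as 1 sample. Because the sides were chosen on measured values and lie within 1 sample, every difference between them is a description with no test and no p-value.

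The profiles of cells 2 and 15, and those of cells 9 and 23, were nearly identical (Pearson r of 0.996 and 0.997) and each pair was averaged, which left 52 profiles, of which 50 had at least 1000 detected genes. The 11 mesothelial-like cells had 1343 to 3685 detected genes with a median of 2876, and the 37 other lineage+ cells had 1071 to 3708 with a median of 2361. The sum of FPKM over all genes had a median of 327575 in mesothelial-like cells and 266027 in the other lineage+ cells. The ranges overlapped almost entirely, and the part of this difference in the ratios was not tested beyond a scaling of all cells to the same total. Many genes are listed at exactly 0 in a cell that may hold some of their RNA, so shares of cells and medians are given beside means.

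Mesothelium is a single layer of flat cells of mesodermal origin that secretes a lubricating fluid into the pleural space. Its cells carry epithelial features, such as keratins, tight junctions and microvilli, together with mesenchymal ones, such as vimentin and collagen. In the mouse embryo Wt1, a zinc finger transcription factor, marks mesothelium, and some mesothelial cells there give rise to mesenchymal cells under the surface. The fibroblasts that fill the alveolar walls and the adventitia of vessels and airways belong to the Tbx4 lineage as well.

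The genes of the rule came first and are given as a description only. Msln encodes mesothelin, a surface glycoprotein of mesothelium, and had a lowest, median and highest value of 2.56, 919 and 1771 FPKM in mesothelial-like cells, against 0, 0 and 0.270 FPKM in the other lineage+ cells. Upk3b, a uroplakin, had 0.572, 187 and 570.0 FPKM in mesothelial-like cells and 0, 0 and 0.0931 FPKM in the others. For both genes every mesothelial-like cell stood above every other lineage+ cell. Lrrn4, a leucine-rich repeat protein, was detected in 8 of 11 mesothelial-like cells, up to 159 FPKM, and was listed at 0 in all 37 others. Upk1b, a uroplakin of the tetraspanin family, and Nkain4, a partner of the sodium pump, were less exclusive. Upk1b was detected in all 11 mesothelial-like cells (up to 2998 FPKM) and in 4 of 37 others (up to 342 FPKM), and Nkain4 in all 11 (up to 2627 FPKM) and in 14 of 37 (37.8%, exact interval 22.5 to 55.2%; up to 685 FPKM). The sides thus overlapped for Upk1b and Nkain4.

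Just inside the limit stood cell 14, with Msln at 2.56, Upk1b at 1.12 and Nkain4 at 2.10 FPKM, Upk3b at 0.572 FPKM and Lrrn4 listed at 0. In the other 10 mesothelial-like cells 4 or 5 markers passed, with Msln at 67.0 FPKM or more. Just outside stood cell 16, with Upk1b at 4.28 and Nkain4 at 15.0 FPKM, and cell 42, with Upk1b at 114 and Nkain4 at 182 FPKM, while Msln, Upk3b and Lrrn4 were listed at 0 in both. Cell 14 was thus nearer to the limit than any other member.

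Across the genome the sides differed in both directions. The ratio given from here on is the log2 of the mean FPKM plus 1 in mesothelial-like cells over the mean FPKM plus 1 in the other lineage+ cells, a scale that understates the difference of low genes. Of 7162 genes that reached 1 FPKM in 10% or more of either side's cells, 1825 (25.5%) had a mean at least 2-fold higher and 1995 (27.9%) one at least 2-fold lower in mesothelial-like cells, with a median ratio of -0.05. Many of these means rest on 1 cell. Without the highest cell of each side as well, 1013 of the genes remained at least 2-fold higher and 1704 at least 2-fold lower. Over means of log2 values, which weigh single high cells less, 1161 genes were at least 2-fold higher and 447 at least 2-fold lower. Scaling every cell to the same total moved the median ratio of all genes by -0.22 and turned the direction of no gene named here whose mean differed at least 2-fold. Of the 1825 higher genes 669 passed the limit through mesothelial-like cells alone, and of the 1995 lower genes 1061 through the other lineage+ cells alone, so the limit itself favours a difference in such genes. The shares 25.5% and 27.9% are the background for every list below.

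**Figure D1:**
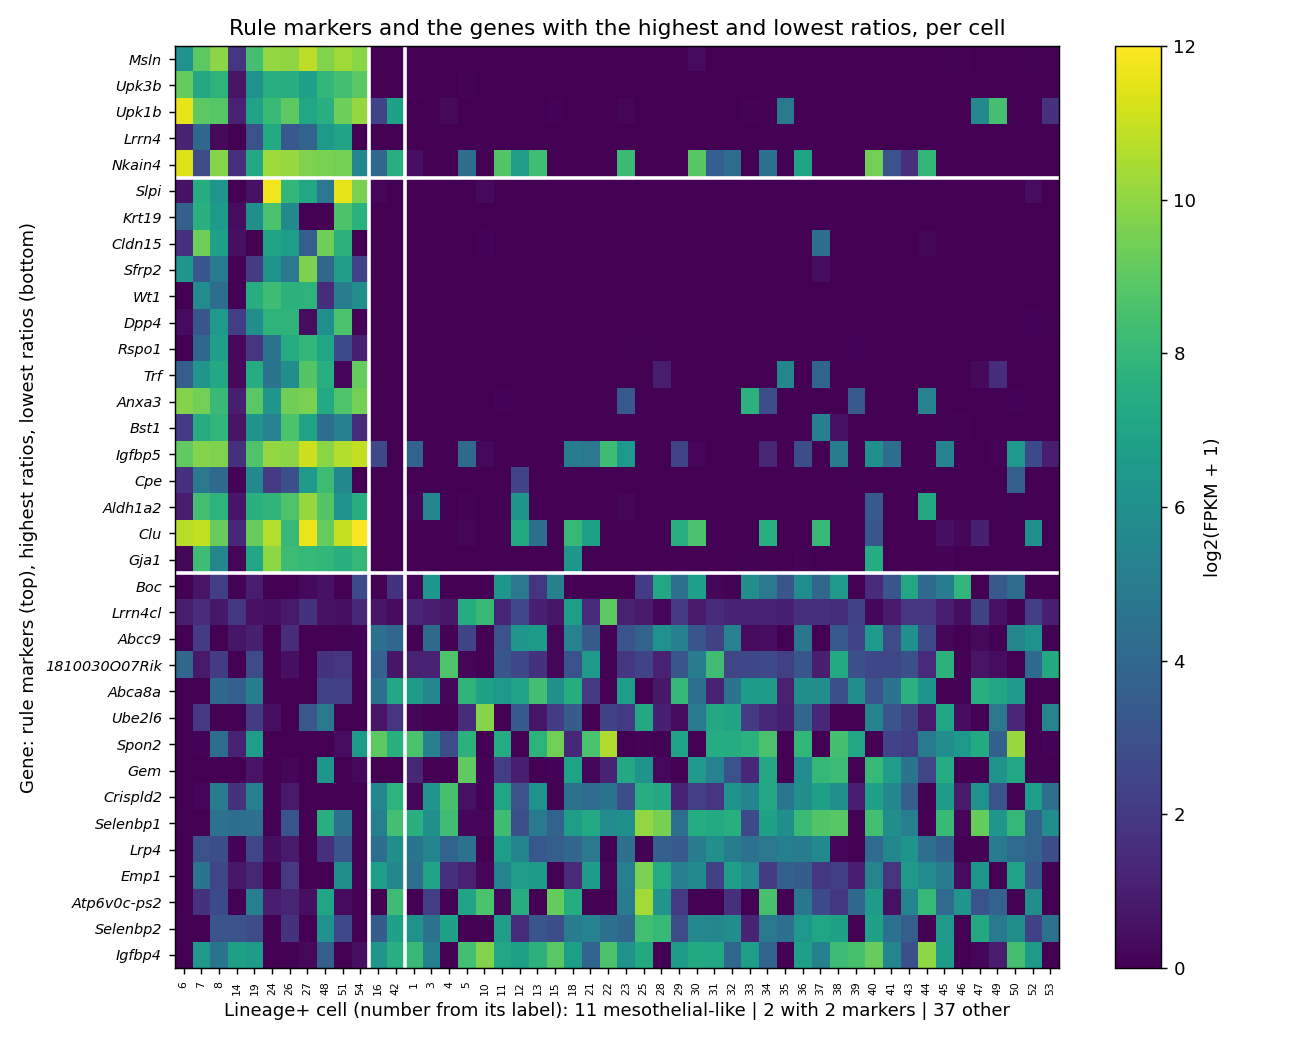
Level of each gene (rows) in each lineage+ cell (columns, numbered as in the labels) as log2 of FPKM plus 1, with the 11 mesothelial-like cells on the left, the 2 cells with 2 markers in the middle and the 37 other lineage+ cells on the right. The 5 rule markers are on top, followed by the 15 genes with the highest and the 15 with the lowest ratio. Cell 14 is dark for most of the upper genes, and cells 6, 24, 27 and 54 are dark for most of the lower ones.

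Genes of mesothelium that the rule did not use were higher in mesothelial-like cells where they passed the detection limit. Of a list of 22 other mesothelial genes, 17 had readable values and 15 passed this detection limit, and all of these 15 had a mean at least 2-fold higher, with a median ratio of 4.52 (5.08 over the 11 genes above 0 on both sides), against a median of -0.05 over all genes. Of the 15, 12 passed through mesothelial-like cells alone, so the limit itself favours a higher mean there. The 2 that did not pass were Calb2, which encodes calretinin and was listed at 0 in every kept lineage+ cell, and Clic5, detected in no cell of either side. The summed level of the 17 genes was 246 to 7505 FPKM in mesothelial-like cells (median 3033) and 0.536 to 1588 FPKM in the other lineage+ cells (median 512), and cell 14 was the lowest of the 11. These genes were listed with earlier results of these data known, so their direction is no independent evidence.

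Wt1 (chromosome 2, 105126529 to 105173614, GRCm38) was detected in 9 of 11 mesothelial-like cells (81.8%, exact interval 48.2 to 97.7%) and in 0 of 37 others (upper bound 9.49%). Its lowest, median and highest values were 0, 54.4 and 305 FPKM in mesothelial-like cells against 0, 0 and 0.0638 FPKM in the others, and the ratio of means was 6.62. The sides overlapped through 2 mesothelial-like cells, cells 6 and 14. Bnc1, a zinc finger factor of epithelia, was detected in 3 mesothelial-like cells and listed at 0 in all others. Aldh1a2, the enzyme that makes retinoic acid from retinaldehyde, had 0.678, 215 and 1107 FPKM in mesothelial-like cells and 0, 0 and 152 FPKM in the others (ratio 5.08), and 4 of the other lineage+ cells detected it. Rspo1, a secreted enhancer of WNT signalling, was detected in 9 of 11 mesothelial-like cells and 0 of 37 others (ratio 6.00). Pdpn (podoplanin, a membrane mucin that lymphatic and alveolar type I cells also carry) and Igfbp6 were shared: Pdpn was detected in 11 of 11 mesothelial-like and 30 of 37 other cells, with medians of 644 and 115 FPKM.

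The gene with the highest ratio of all that the naming rule could pick was Slpi, a secreted inhibitor of neutrophil proteases. It had 0, 140 and 3454 FPKM (lowest, median, highest) in mesothelial-like cells and 0, 0 and 0.313 FPKM in the others, with a ratio of 9.46. It was detected in 8 of the 11, and cells 24 and 51, at 3454 and 2972 FPKM, held most of it, so that without the highest cell of each side the ratio was 8.78. Sfrp2, a secreted WNT antagonist, was detected in 10 of 11 mesothelial-like cells and 0 of 37 others, with 0.0972, 26.7 and 784 FPKM against 0, 0 and 0.304 FPKM. Its ratio of 6.68 became 5.13 without the highest cell of each side, since cell 27 stood far above the rest. Dpp4, a membrane peptidase, had 0.0784, 60.8 and 382 FPKM in mesothelial-like cells and 0, 0 and 0.0916 FPKM in the others, a ratio of 6.58. Dpp4 stood on the list of adventitial fibroblast genes, most of whose other members went the opposite way. Without cell 24 the ratio was 8.76 for Slpi, and without cell 27 it was 5.12 for Sfrp2.

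Clu and Igfbp5, which encode secreted proteins, were abundant in 10 of the 11 mesothelial-like cells. Clu, which encodes the chaperone clusterin, had 1.52, 1614 and 3939 FPKM in mesothelial-like cells and 0, 0 and 390.4 FPKM in the others (ratio 5.04), and 10 of the 11 members lay at 263 FPKM or more. Igfbp5, a binding protein for insulin-like growth factors, had 2.13, 939 and 2138 FPKM against 0, 0.0842 and 312 FPKM (ratio 5.61). Cell 14 was the lowest member for both genes, and the other 10 stood above every other lineage+ cell for Igfbp5. Anxa3, an annexin that binds phospholipid with calcium, had 1.00, 485 and 876 FPKM against 0, 0 and 199 FPKM (ratio 5.86, and 7.28 without the highest cell of each side). Trf, which encodes transferrin, Bst1, an ectoenzyme that splits NAD, and Cpe, a carboxypeptidase of prohormones, had ratios of 5.87, 5.67 and 5.13. Among the 20 genes named as high, the ratios without the highest cell of each side ran between 4.50 for Cpe and 8.78 for Slpi. Without cell 48 the ratio was 4.16 for Cpe.

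Of the genes typical of epithelia, 4 keratins were detected in mesothelial-like cells and in none of the 37 others, whereas many cell junction genes did not pass the detection limit. Krt19, Krt7, Krt8 and Krt18 were detected in 8, 7, 5 and 2 of the 11 mesothelial-like cells and in 0 of the 37 others. Krt19 reached 394 FPKM and Krt7 reached 806 FPKM, while Vim, the intermediate filament of mesenchyme, was detected in 11 of 11 mesothelial-like and 37 of 37 other cells, with medians of 268 and 334 FPKM (ratio -0.23). The keratins were thus present beside Vim, not in its place. Of 21 cell junction genes with values, 11 did not pass the detection limit, 8 had a mean at least 2-fold higher, 0 one lower and 2 neither. Of the 8, 6 passed through mesothelial-like cells alone, so the limit itself favours a higher mean there. The median ratio of the 10 that passed was 2.92, or 2.07 over the 9 above 0 on both sides, and 1.62 to 2.18 leaving out each mesothelial-like cell in turn. Without cell 14, 12 passed, with 7 higher and 1 lower (median ratio 2.12). Cldn15, a tight junction claudin that forms cation pores, was detected in 8 of 11 mesothelial-like cells and 1 of 37 others, with medians of 101 and 0 FPKM (ratio 6.82). Gja1, the gap junction protein connexin 43, was detected in 9 of 11 and 2 of 37, with medians of 249 and 0 FPKM (ratio 5.03, and 5.80 without the highest cells). F11r, the junctional adhesion molecule A, and Cgn, the tight junction plaque protein cingulin, had ratios of 4.18 and 4.73, and F11r was detected in 8 mesothelial-like cells and 1 other. Cdh1, which encodes E-cadherin, Dsp, which encodes desmoplakin, and Ocln, which encodes occludin, did not pass the detection limit.

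Genes of microvilli and the apical membrane did not all differ in the same direction. Ezr, which encodes ezrin and links actin to the membrane of microvilli, had 0.122, 188 and 465 FPKM in mesothelial-like cells and 0, 0 and 203 FPKM in the others (detected in 10 of 11 and 4 of 37; ratio 4.39). Slc9a3r1, the scaffold that binds ezrin, was detected in 9 of 11 and 1 of 37 cells (ratio 4.39). Msn, which encodes the related protein moesin, went the other way, detected in 5 of 11 mesothelial-like cells and 24 of 37 others (ratio -2.22). Of the 7 microvillus and apical genes that passed the limit, 4 had a mean at least 2-fold higher and 1 one lower. Of these 4, 2 passed through mesothelial-like cells alone. Of 8 genes of water and ion transport, 5 were at least 2-fold higher and 2 lower (median ratio 2.41, and at most 1.75 when any 1 mesothelial-like cell was left out, with 1.57 without cell 14). Of the 5, 4 passed the limit through mesothelial-like cells alone, so the limit itself favours a higher mean there. Nkain4, a rule marker, is among the 5, and of the 7 genes without it 4 were higher and 2 lower (median ratio 1.48). Aqp1, a water channel, was detected in 10 of 11 and 2 of 37 cells, with 0.137, 22.5 and 96.1 FPKM against 0, 0 and 35.5 FPKM (ratio 4.19). Fxyd3, a regulator of the sodium pump, was detected in 7 of 11 and 1 of 37 cells (ratio 8.43), and Slc16a1, a lactate transporter, in 10 of 11 and 3 of 37 (ratio 4.14). Of the prostaglandin genes, Ptgs1, the constitutive cyclooxygenase, was detected in 9 of 11 mesothelial-like cells and 1 of 37 others (ratio 2.86), whereas Ptgs2, the inducible one, was detected in 2 of 11 and 19 of 37 (ratio -3.50). For Ptgs1 a single other cell at 614 FPKM set the mean, and the ratio was 5.72 without the highest cell of each side. Without cell 6 the ratio was 1.63 for Ptgs1, without cell 14 it was -4.15 for Ptgs2, and without cell 27 it was 3.74 for Slc9a3r1 and -4.25 for Ptgs2.

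**Figure D2:**
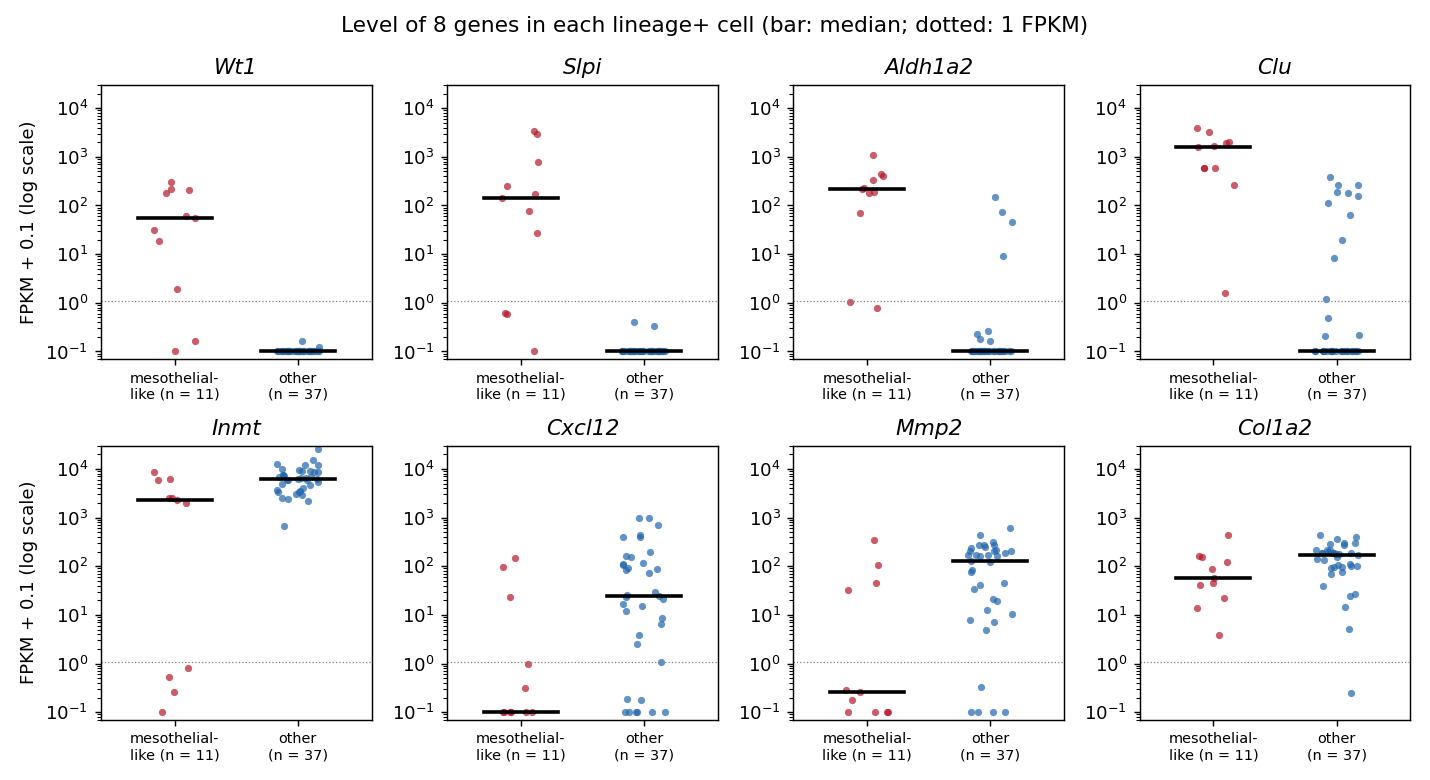
FPKM plus 0.1 on a log scale for 8 genes, each point 1 cell, with the 11 mesothelial-like cells on the left and the 37 other lineage+ cells on the right of each panel, the bar at the median and the dotted line at the detection limit of 1 FPKM. Wt1, Slpi, Aldh1a2 and Clu have medians of 54.4 to 1614 FPKM in mesothelial-like cells and 0 in the others. Inmt splits the mesothelial-like cells into 4 under 1 FPKM and 7 at 1994 FPKM or more.

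Promoter sequences are shown for genes at both ends of the ratio, so that the stretch upstream of each start can be read. Of the 45 genes named as rule markers, high or low, 27 had an entry in the RefSeq promoter table (GRCm38.p6), which gives 250 bases before and 50 after the start, and 4 high and 2 low genes are printed 5′ to 3′ along the transcribed strand. Capitals mark matches, on either strand, to 5 short motifs. These were the TATA box with the letters TATAAA, the box named by its own letters CCAAT, the promoter element called GC box with the letters GGGCGG, the element of the TEAD factors with the letters GGAATG, and an element of the WT1 protein with the letters GTGGGAG. Over all 32851 promoters of the table, 13.6% hold the first, 37.4% the second, 35.7% the GC box, 14.7% the TEAD element and 9.73% the WT1 element. The regions are chr2:164356458-164356757 (minus strand) for Slpi, chr5:136967619-136967918 (plus) for Cldn15, chr3:83766071-83766370 (plus) for Sfrp2, chr2:62412182-62412481 (minus) for Dpp4, chr6:142702225-142702524 (minus) for Abcc9 and chrX:12673590-12673889 (minus) for 1810030O07Rik.
Slpi promoter: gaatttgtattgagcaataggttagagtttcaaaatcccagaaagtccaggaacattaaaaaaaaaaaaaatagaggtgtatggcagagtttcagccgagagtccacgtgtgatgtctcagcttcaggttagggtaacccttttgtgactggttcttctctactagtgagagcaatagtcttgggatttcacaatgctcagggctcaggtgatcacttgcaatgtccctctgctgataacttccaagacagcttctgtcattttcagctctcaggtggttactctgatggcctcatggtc
Cldn15 promoter: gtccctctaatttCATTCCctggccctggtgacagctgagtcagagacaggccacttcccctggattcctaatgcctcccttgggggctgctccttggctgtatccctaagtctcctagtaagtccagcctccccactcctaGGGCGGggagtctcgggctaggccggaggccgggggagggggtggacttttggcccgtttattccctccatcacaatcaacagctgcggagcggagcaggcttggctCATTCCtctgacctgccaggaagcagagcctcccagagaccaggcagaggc
Sfrp2 promoter: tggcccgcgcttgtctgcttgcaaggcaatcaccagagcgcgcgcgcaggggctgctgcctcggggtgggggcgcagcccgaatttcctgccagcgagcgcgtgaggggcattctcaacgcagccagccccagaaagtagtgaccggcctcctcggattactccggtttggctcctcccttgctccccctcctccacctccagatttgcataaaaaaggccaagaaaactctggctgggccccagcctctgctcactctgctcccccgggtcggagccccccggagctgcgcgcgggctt
Dpp4 promoter: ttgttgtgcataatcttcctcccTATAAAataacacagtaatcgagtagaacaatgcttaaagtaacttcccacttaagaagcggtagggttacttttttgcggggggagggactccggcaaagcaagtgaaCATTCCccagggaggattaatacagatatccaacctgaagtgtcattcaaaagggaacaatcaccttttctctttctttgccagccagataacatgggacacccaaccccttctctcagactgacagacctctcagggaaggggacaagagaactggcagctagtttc
Abcc9 promoter: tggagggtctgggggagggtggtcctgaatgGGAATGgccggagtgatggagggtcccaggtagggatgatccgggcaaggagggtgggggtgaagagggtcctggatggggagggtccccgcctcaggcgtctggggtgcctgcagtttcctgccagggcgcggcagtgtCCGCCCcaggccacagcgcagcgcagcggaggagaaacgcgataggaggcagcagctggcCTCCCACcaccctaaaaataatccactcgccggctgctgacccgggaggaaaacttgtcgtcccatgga
1810030O07Rik promoter: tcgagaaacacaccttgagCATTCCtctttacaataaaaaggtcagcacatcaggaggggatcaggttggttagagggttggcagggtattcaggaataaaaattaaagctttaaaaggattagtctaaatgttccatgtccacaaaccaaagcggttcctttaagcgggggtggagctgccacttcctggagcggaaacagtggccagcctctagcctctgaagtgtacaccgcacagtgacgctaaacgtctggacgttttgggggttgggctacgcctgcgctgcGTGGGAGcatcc
The TEAD element was matched in Cldn15 (2 matches), Dpp4, Abcc9 and 1810030O07Rik, the GC box in Cldn15 and Abcc9, the TATA box in Dpp4, and the WT1 element in both low genes, Abcc9 and 1810030O07Rik. No motif was matched in Slpi or Sfrp2. A match is a run of letters in this window and not a measured binding site.

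Fibroblast genes were more often lower than higher in mesothelial-like cells. Of 12 alveolar fibroblast genes that passed the detection limit, 9 had a mean at least 2-fold lower and 1 at least 2-fold higher (median ratio -1.43, against -0.05 over all genes). Of 13 adventitial fibroblast genes, 8 were lower and 2 higher (median ratio -1.30, and -1.83 without cell 14). The higher ones were Ces1d, a carboxylesterase of a gene family with near copies whose reads may be shared (ratio 3.65), on the alveolar list, and Dpp4 and Cd248 (ratio 3.16), a membrane protein of stromal cells called endosialin, on the adventitial list. Pcolce2, an enhancer of procollagen processing, had 0, 7.88 and 318 FPKM in mesothelial-like cells and 0.0867, 214 and 1134 FPKM in the others (ratio -2.34), and Mfap5, a protein of microfibrils, had 0, 18.4 and 1085 FPKM against 0, 424 and 2074 FPKM (ratio -1.30, and -2.13 without the highest cell of each side). For both genes the sides overlapped over most of their range. Serpinf1, an inhibitor of blood vessel growth, was detected in 4 of 11 and 19 of 37 cells (ratio -3.65). Without cell 6 the ratio was 2.64 for Ces1d, without cell 8 it was -3.05 for Pcolce2, and without cell 14 it was -2.28 for Mfap5 and 2.35 for Cd248. Without cell 19 the ratio was -5.20 for Serpinf1.

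Among the genes with the lowest ratios, Boc, a coreceptor for hedgehog ligands, was detected in 2 of 11 mesothelial-like cells (18.2%, exact interval 2.28 to 51.8%) and 23 of 37 others (62.2%, 44.8 to 77.5%). Its lowest, median and highest values were 0, 0.179 and 5.45 FPKM in mesothelial-like cells against 0, 8.26 and 240 FPKM in the others (ratio -4.05). Abcc9, a regulatory subunit of potassium channels, had 0, 0.0438 and 3.36 FPKM against 0, 5.91 and 90.96 FPKM (ratio -3.67), and Abca8a, a lipid transporter, had 0, 0.0588 and 31.4 FPKM against 0, 58.5 and 337 FPKM (ratio -3.44). In each case the sides overlapped at the low end, and the highest mesothelial-like cell lay below the median of the others. Spon2, a matrix protein of the spondin family, was detected in 4 of 11 and 26 of 37 cells (ratio -3.18), Gem, a small GTPase, in 1 of 11 and 23 of 37 (ratio -3.15, and -5.72 without the highest cell of each side), and Crispld2, a secreted protein, in 3 of 11 and 29 of 37 (ratio -2.92). Lrp4, a receptor that inhibits WNT signalling and organises nerve endings on muscle, was detected in 5 of 11 and 30 of 37 cells (ratio -2.74). The remaining genes with the lowest ratios were Lrrn4cl (-3.84), 1810030O07Rik (-3.48), Ube2l6 (-3.26), Selenbp1 (-2.78), Emp1 (-2.64), Atp6v0c-ps2 (-2.62), Selenbp2 (-2.56) and Igfbp4 (-2.54). Selenbp1 and Selenbp2 are close copies of each other and Atp6v0c-ps2 is a pseudogene, so their reads may be split with relatives. The mean of Lrrn4cl in the others, 29.9 FPKM, came from few cells, since the median was 0.741 FPKM in mesothelial-like cells and 1.28 FPKM in the others. Without cell 8 the ratio was -3.53 for Crispld2, without cell 19 it was -4.10 for Abca8a, -3.96 for Spon2 and -3.65 for Crispld2, and without cell 48 it was -4.21 for Ube2l6, -6.01 for Gem, -4.17 for Selenbp1, -4.26 for Atp6v0c-ps2 and -3.89 for Selenbp2. Without cell 51 the ratio was -3.77 for Emp1, and without cell 54 it was -3.79 for Spon2.

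Genes chosen by the gap in the share of cells were taken after those with the most extreme ratios, so their ratios are smaller by construction. Cmklr1, a receptor of the attractant chemerin, was detected in 2 of 11 mesothelial-like cells and 28 of 37 others, with medians of 0 and 22.7 FPKM (ratio -2.03, and -4.21 without the highest cells). Rarres2, which encodes chemerin itself, was higher in mesothelial-like cells, with 1128, 2869 and 8026 FPKM against 0, 565 and 4863 FPKM (ratio 2.13), and 11 of 11 and 34 of 37 cells detected it. The ratios of Cmklr1 and Rarres2 thus had opposite signs, although most cells on both sides detected Rarres2. Mmp2, a gelatinase that degrades collagen, was detected in 4 of 11 and 32 of 37 cells, with medians of 0.160 and 130 FPKM (ratio -1.48), and Cxcl12, a chemokine for stem cells and lymphocytes, in 3 of 11 and 28 of 37, with medians of 0 and 23.8 FPKM (ratio -2.49). Prdx6, a peroxiredoxin, was detected in 2 of 11 and 25 of 37 cells (ratio -1.97), and Gulp1, an adapter for engulfment, in 2 of 11 and 25 of 37 (ratio -1.03). Without cell 7 the ratio was -3.19 for Prdx6 and -3.47 for Cxcl12, without cell 8 it was -4.31 for Cmklr1, and without cell 26 it was -2.83 for Mmp2. Without cell 51 the ratio was -2.04 for Gulp1.

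Of 10 cytokine and chemokine genes, 6 had a mean at least 2-fold lower and 1 one higher (median ratio -1.65, and -1.02 without cell 26). Il6 was detected in 2 of 11 mesothelial-like cells, cells 7 and 19 at 295 and 238 FPKM, and in 22 of 37 others, up to 3651 FPKM (ratio -3.13). Cxcl1, an attractant of neutrophils, was shared, detected in 6 of 11 and 30 of 37 cells (ratio -1.16). Cxcl10, an attractant of T cells that interferon induces, was the 1 higher gene, detected in 5 of 11 and 4 of 37 cells (ratio 2.07). Of 11 complement genes, 5 were at least 2-fold higher, 0 lower and 6 neither, with a median ratio of 0.10, close to the -0.05 over all genes. C2, a protease of the classical pathway, had 0.501, 116 and 1354 FPKM against 0, 0 and 139 FPKM (ratio 4.71), and Cfb, its counterpart in the alternative pathway, was detected in 7 of 11 and 10 of 37 cells (ratio 3.18). C2 and Cfb lie next to each other, and no source states how reads at their border were split. C3, the component on which the pathways meet, was detected in 11 of 11 and 32 of 37 cells, with medians of 267 and 79.1 FPKM (ratio 1.45). Serping1, the inhibitor of the first complement proteases, had medians of 1411 and 1158 FPKM (ratio 0.09). Without cell 7 the ratio was -4.12 for Il6, without cell 8 it was 1.05 for Cxcl10, and without cell 19 it was -3.83 for Il6. Without cell 27 the ratio was 3.82 for C2.

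Matrix genes differed by class. Of 10 fibrillar and associated collagen genes, 5 had a mean at least 2-fold lower and 0 one higher (median ratio -0.85, and -1.59 without cell 14, which held the highest Col1a2 and Col1a1 of the 11). Col1a1 was detected in 6 of 11 and 33 of 37 cells, with medians of 4.17 and 30.9 FPKM (ratio -1.75), whereas Col1a2 was detected in 11 of 11 and 36 of 37, with medians of 57.9 and 168 FPKM (ratio -0.63). Basement membrane genes were mixed, with 4 of 16 higher (25.0%) and 5 lower (31.2%). These shares were close to the 25.5% and 27.9% over all genes. Col4a3, a collagen chain of specialised basement membranes, was detected in 8 of 11 and 3 of 37 cells (ratio 3.99), and Col4a1, a chain of nearly all basement membranes, in 6 of 11 and 25 of 37 (ratio -2.34). Of 12 elastic fibre genes, 6 were lower and 2 higher, and Efemp1, an extracellular protein of the fibulin family, was one of the higher ones, with 14.6, 813 and 2807 FPKM against 0, 167 and 2124 FPKM (ratio 1.92). Gpc3, a membrane proteoglycan that binds growth factors, had 127, 1729 and 5978 FPKM against 18.1, 533 and 1897 FPKM (ratio 1.74).

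Transcription factors of mesenchyme and mesothelium were more often lower, with 11 of 23 at least 2-fold lower and 2 higher. The 2 higher ones were Wt1 and Bnc1, which also stand on the list of other mesothelial genes and passed the limit through mesothelial-like cells alone. Of the 11 lower ones 5 passed through the other lineage+ cells alone. Prrx1, a homeobox factor of mesenchyme, was detected in 1 of 11 and 22 of 37 cells (ratio -3.71), and Tcf21, a factor of lung fibroblasts, in 5 of 11 and 24 of 37 (ratio -1.43). Ebf1, a factor of B cells and some stromal cells, was detected in 1 of 11 mesothelial-like cells and 8 of 37 others (ratio -5.13). Snai2, a repressor of E-cadherin, was detected in 0 of 11 and 9 of 37 (ratio -3.70). Both ratios rest on few cells, since the medians were 0 on both sides for Ebf1 and 0.0131 and 0.0193 FPKM for Snai2. Over means of log2 values the differences were -1.04 for Ebf1 and -0.99 for Snai2. Among pathways, 6 of 14 WNT genes were at least 2-fold higher and 4 lower, the higher ones including Sfrp2, Rspo1 and the ligand Wnt9a (ratio 3.62, and 2.01 without the highest cells). Of the 6 higher WNT genes 5 passed the limit through mesothelial-like cells alone, and of the 4 lower ones 3 through the other lineage+ cells alone. Of 9 hedgehog genes, 4 were higher and 1, Boc, lower. Gas1, a coreceptor that binds hedgehog ligands as Boc does, was detected in 10 of 11 and 24 of 37 cells (ratio 1.98). Of 20 TGF-beta and BMP genes, 4 were higher and 7 lower, and Id1, a target of BMP signalling, was detected in 7 of 11 and 4 of 37 cells, with medians of 113 and 0 FPKM (ratio 4.57). Of 9 genes of the insulin-like growth factor system, 2 were higher and 3 lower, and Igfbp4, at a ratio of -2.54, stood against Igfbp5, at 5.61. Without cell 26 the ratio was -2.07 for Tcf21, without cell 27 it was 1.61 for Wnt9a, and without cell 51 it was -2.23 for Tcf21 and 3.94 for Id1.

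**Figure D3:**
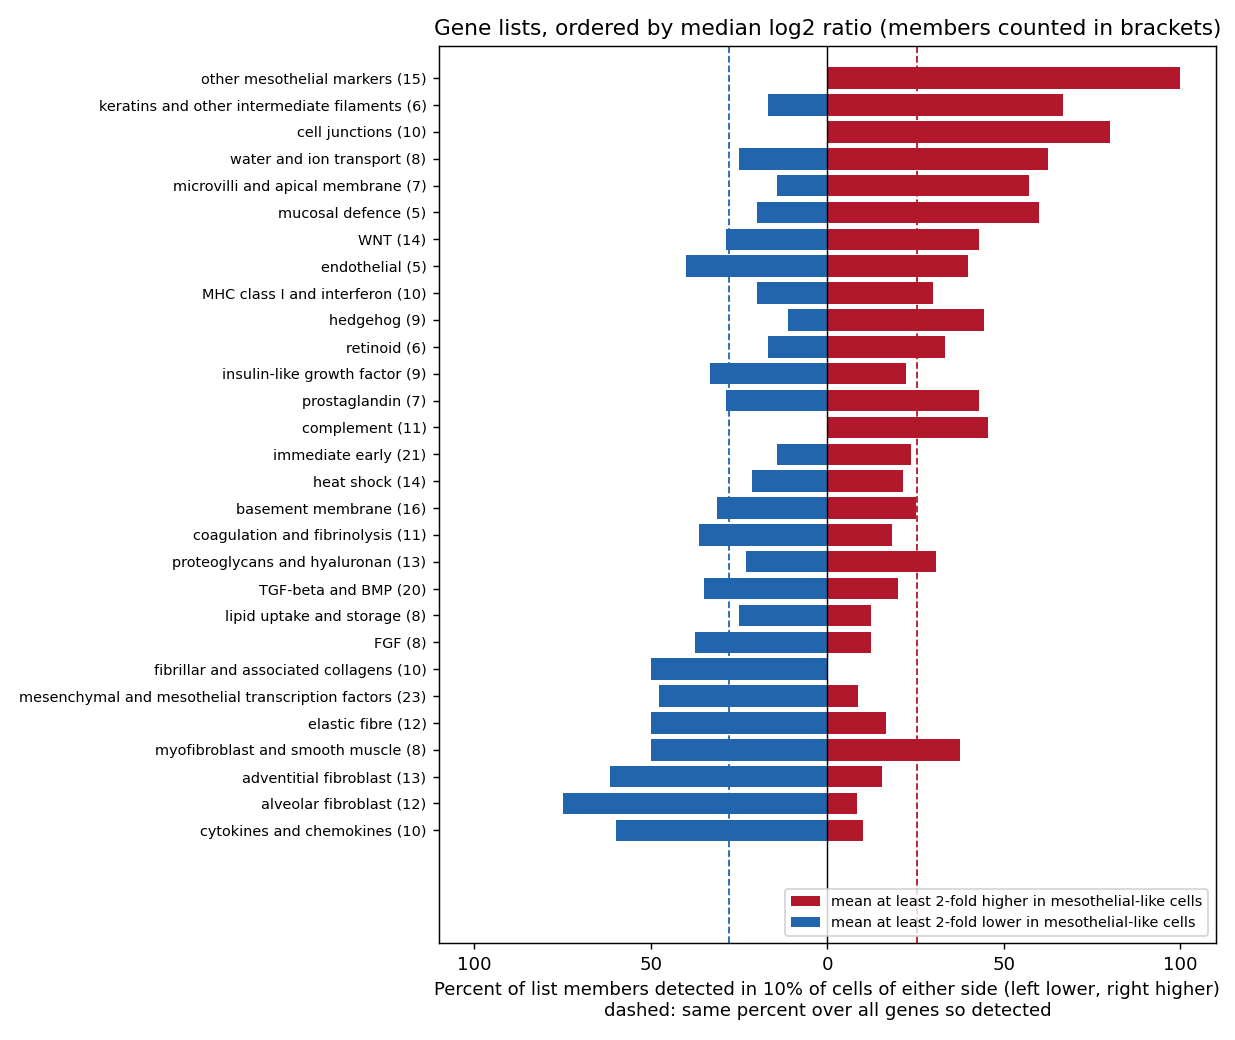
Share of each gene list with a mean at least 2-fold higher (right) or lower (left) in mesothelial-like than in other lineage+ cells, among members past the detection limit (10% of the cells on 1 of the sides), whose number is in brackets. Lists with at least 5 such members are shown, ordered by median ratio, and dashed lines mark the shares over all genes, 25.5% higher and 27.9% lower (water and ion transport includes the rule marker Nkain4). Mesothelial genes, cell junctions and keratins lie at the top, and cytokines and alveolar and adventitial fibroblast genes at the bottom.

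Markers of other cell types were few. Of 14 endothelial genes, 6, including Pecam1 and Cdh5, were listed at 0 in every cell, and the summed level was 0.0432 to 494 FPKM in mesothelial-like cells (median 10.2) and 0 to 146 FPKM in the others (median 0.128). Esam, an adhesion molecule of endothelial junctions, made up most of it in cell 51, was detected in 5 of 11 and 0 of 37 cells, and had a ratio of 6.12. Kdr, a receptor for VEGF, was detected in 5 of 11 and 0 of 37 cells (ratio 2.00). Of the 5 endothelial genes that passed the detection limit, these 2 were at least 2-fold higher, 2 were lower and 1 neither. The lower ones were Tek, in 1 of 11 and 8 of 37 cells (ratio -2.75), and Eng, in 0 of 11 and 4 of 37 (ratio -1.57). The 2 higher genes passed through mesothelial-like cells alone and the 2 lower ones through the other lineage+ cells alone. Lung epithelial markers summed to 0.00551 to 356 FPKM in mesothelial-like cells (median 1.62) and 0 to 212 FPKM in the others (median 1.39), with Epcam in cell 27 and the club cell gene Scgb1a1 in cell 26 as the highest. Immune markers summed to at most 69.7 FPKM in mesothelial-like cells and 318 FPKM in the others, with a median of 0 on both sides, and all 4 erythroid genes with values were listed at 0 throughout. Pericyte markers had medians of 0 and 1.13 FPKM. The part of these markers in the differences above was not tested. Without cell 51 the ratio was 4.80 for Esam.

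Fibroblast genes varied among the mesothelial-like cells themselves. Inmt, a methyltransferase and one of the most abundant transcripts of lung fibroblasts, was detected in all 37 other lineage+ cells, at 682 to 26201 FPKM with a median of 6230 FPKM. In mesothelial-like cells it stood at 0, 0.161, 0.433 and 0.725 FPKM in cells 27, 24, 6 and 54, at 1994, 2246, 2524 and 2536 FPKM in cells 7, 48, 19 and 14, and at 6121, 6035 and 8509.5 FPKM in cells 51, 26 and 8. No cell lay between 0.725 and 1994 FPKM, and 6 of the 7 cells with Inmt also carried the mesothelial markers at levels like those of the 4 without it. Msln, for example, was at 337 to 1233 FPKM in those 6 cells and at 67.0 to 1771 FPKM in the 4.

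Some other fibroblast genes divided these cells in the same way and others did not. Pcolce2 and Mfap5 were listed at 0 in cells 27, 24, 6 and 54 and stood between 0.914 and 1085 FPKM in the other 7 for Mfap5 and between 3.29 and 318 FPKM for Pcolce2. Of the 13 adventitial genes, 2 or 3 were detected in each of the 4 cells and 7 to 13 in each of the other 7, although Cd34 was detected in 9 and Clec3b in 8 of the 11. The 14 alveolar genes with values did not separate the cells, with 1 to 3 detected in each of the 4 cells and 2 to 11 in each of the other 7, cell 14 having 2. The number of genes detected moved with it: 2134, 2295, 1650 and 1760 in cells 27, 24, 6 and 54, against 2876 to 3685 in the 6 cells other than cell 14, which had 1343. These 4 and 7 cells were told apart by looking at Inmt, no test applies, and the part of the number of detected genes was not tested. Wells had been inspected by eye for doublets, and none was called from the values.

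**Figure D4:**
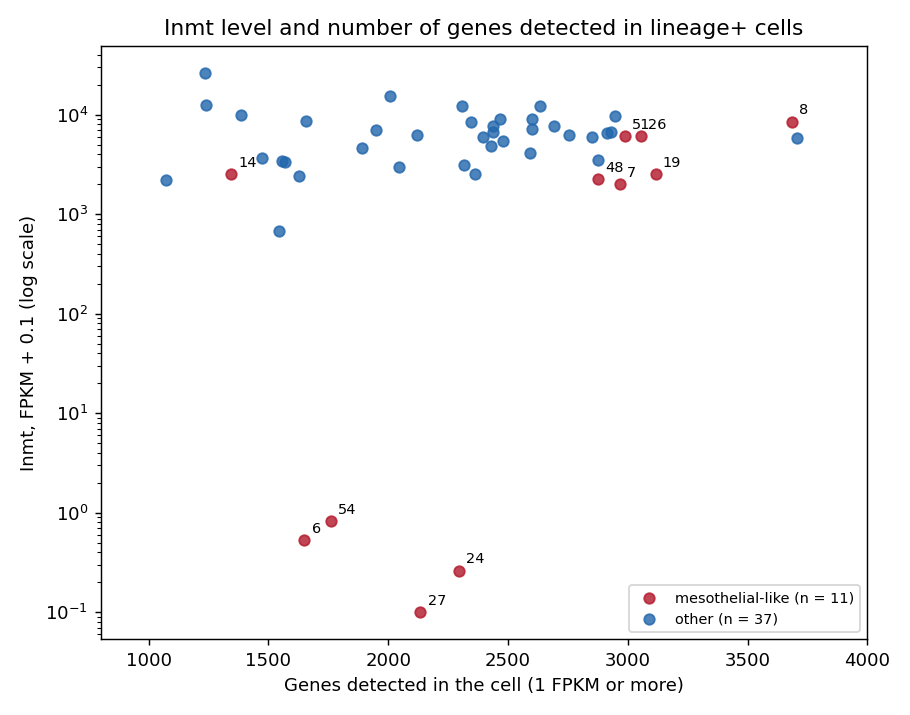
Inmt in FPKM plus 0.1 (log scale) against the number of genes detected, 1 point per cell, for the 11 mesothelial-like cells (numbered as in the labels) and the 37 other lineage+ cells. Cells 27, 24, 6 and 54 stand at the bottom with 1650 to 2295 detected genes, and the remaining 7 mesothelial-like cells lie within the band of the other lineage+ cells or close to it.

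The 20 high and 20 low genes together describe each cell. Mesothelial-like cells detected 4 to 20 of the high genes (median 18) and 0 to 15 of the low ones (median 7), and the other lineage+ cells detected 0 to 5 high (median 1) and 8 to 20 low ones (median 14). Apart from cell 14, with 4 high and 7 low genes, every mesothelial-like cell detected at least 14 high genes. The 2 cells with 2 markers detected 1 and 2 high genes and 15 low genes each, like the other lineage+ cells. These genes were chosen on these cells, so the separation is by construction. Over 7157 genes without the rule markers, the median Pearson r of a cell with single mesothelial-like cells was higher than its median with single other lineage+ cells in 10 of 11 mesothelial-like cells, at 0.368 to 0.436 against 0.317 to 0.416. Cell 14, at 0.303 against 0.337, was the exception, and in all 37 other cells and both cells with 2 markers the median with the other lineage+ cells was the higher one. The genes include those that separate the sides, so this is a description of the cells chosen.

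The lineage- cells had no part in choosing the genes, although the 1 cell described here was picked by the same 5 markers. Of 34 kept lineage- cells, sorted by the same gate and deposited in a table of their own, 1 had 5 markers at 1 FPKM or more, 1 had 1 marker and 32 had none. Lineage- cell 15 had Msln at 805, Upk3b at 776, Upk1b at 61.6, Nkain4 at 2757 and Lrrn4 at 41.8 FPKM. It detected 15 of the 20 high genes, against 1 to 7 (median 4) in the other 33 lineage- cells, and 6 of the 20 low genes, against 0 to 17 (median 5). Slpi, the gene with the highest ratio that the naming rule could pick, was listed at 0 in it. Cell names carry a different prefix in each table, no source states a common scaling of the tables, and 1 cell allows no test.

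**Figure D5:**
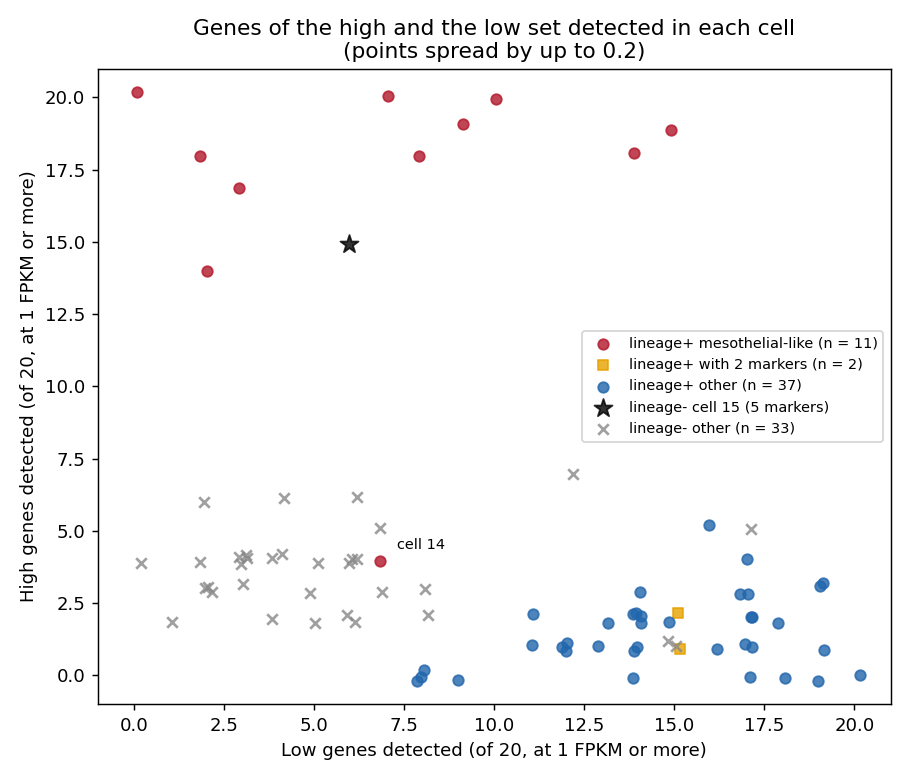
Number of the 20 high genes (vertical) and of the 20 low genes (horizontal) detected in each cell, points spread by up to 0.2. The mesothelial-like cells other than cell 14 lie at 14 or more high genes over the range of 0 to 15 low genes, lineage- cell 15 (star) at 15 and 6, and the other lineage+ cells at 5 or fewer high genes.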

How the data were processed

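Single-cell libraries were made on Fluidigm C1 chips with a SMARTer kit and Nextera XT, per the labels' protocols. RSEM 1.2.20 and Bowtie 1.1.1 appear in the submitters' processing notes, as do 2 builds (mm9, GRCm38), with no role given for any. The authors deposited FPKM for every gene in each cell, a unit inferred from values that are not whole and totals that differ between cells. They keep no read counts, so depth is unknown beyond genes detected. Of 23846 rows, 1830 (7.67%) had no value and 731 rows of 249 repeated symbols were left out, which leaves 21285 genes. Every per-sample column was mapped to a cell, and 0 were left unused. Of 19613 symbols shared with RefSeq (GRCm38.p6), 99.3% overlapped its gene. Starts are printed 1-based.

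Here, near-identical profiles (Pearson r above 0.9 on log2 of FPKM plus 1) were averaged, and cells with 1000 detected genes kept. A gene passed when detected at 1 FPKM in at least 10% of cells of either side. Ratios used a pseudocount of 1 FPKM, and 2-fold was the limit for higher or lower. The high genes were the 15 with the highest ratio among those detected in at least 70% of mesothelial-like cells, plus the 5 with the widest gap in share. The low genes were chosen likewise, detected in at least 60% of the other lineage+ cells, and both also had to pass 2-fold without the highest cell of each side. Genes named from lists were picked for their role and values. The members, the 34 gene lists and these rules were chosen with earlier results of these data known. The ratio was tested on simulated data with planted changes. Shares have exact Clopper-Pearson 95% intervals. The tools were scipy 1.17.1, pandas 2.3.3 and numpy 2.4.6 under Python 3.11.15, with figures by matplotlib 3.10.9.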

Additional observations from a re-analysis of the deposited data

How the results depend on the processing

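No paired analysis was possible because replicate numbers only name cells and no comparison rests on a test. The counts of 1825 higher and 1995 lower genes became 904 and 698 with a pseudocount of 10 FPKM, 1161 and 447 with means of log2 values, and 1102 higher and 2534 lower without the highest cell of each side. The lower count became 3091 with no filter on detection and 847 with genes detected in 25% of cells. Leaving out each mesothelial-like cell in turn gave 2242 to 2451 higher and 2187 to 2387 lower genes, because a gene then passes in 1 of 10 cells, and a share of 20.4% mesothelial-like cells. The median ratio of the other mesothelial genes, 4.52, became 7.28 and 1.72 with pseudocounts of 0.1 and 10 FPKM, 3.41 with means of log2 values and 3.52 without the highest cell of each side, and ran from 3.99 to 4.66 leaving out each cell. That of the alveolar fibroblast genes ran from -1.77 to -1.29 leaving out each cell. Of the 40 high and low genes none changed sign under any alternative run. They were chosen for large ratios that also held without the highest cell of each side, so this is partly by construction. The median ratio of the immune genes, which rests on 2 genes, turned from 1.03 to -0.034 with no filter on detection, -0.97 with cells of 2000 or more genes, -1.31 with markers counted at 10 FPKM, -1.70 against cells with no marker, -0.20 without the highest cell of each side and -0.85 without cell 14 (-0.85 to 1.09 leaving out each cell). That of the myofibroblast and smooth muscle genes, -1.16, turned to 0.43 with cells of 2000 or more genes, and Scgb1a1, at 1.79, to -0.51 without cell 26 (-0.51 to 1.93 leaving out each cell). Where not stated, the cause of a move was not tested. FPKM hold no counts, so depth sets no bound on a value of 0, and 11 cells leave wide intervals on every share.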

Other observations

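Immediate early genes, many of which respond to cell isolation, had no common direction. Of 21 immediate early genes that passed the detection limit, 5 had a mean at least 2-fold higher and 3 one at least 2-fold lower in mesothelial-like cells (median ratio -0.02). Fos, a subunit of the AP-1 factor, was detected in 10 of 11 mesothelial-like and 37 of 37 other lineage+ cells, with medians of 1501 and 1013 FPKM (ratio 0.37), and cell 6, at 0.0926 FPKM, was the exception. Ier3, a stress-response gene, was the most different of those higher, detected in 8 of 11 and 21 of 37 cells (ratio 2.61), and Socs3, an inhibitor of cytokine signalling, was lower, detected in 2 of 11 and 17 of 37 (ratio -2.90). Of 14 heat shock genes 3 were higher and 3 lower (21.4% each, against 25.5% and 27.9% over all genes). Cryab, a small heat shock protein, was detected in 9 of 11 and 23 of 37 cells, with medians of 144 and 10.7 FPKM (ratio 1.70). Of 10 genes of MHC class I and the interferon response 3 were higher and 2 lower, and B2m, the light chain of MHC class I, had medians of 1278 and 711 FPKM (ratio 1.14, and 0.74 without the highest cell of each side). Without cell 6 the ratio was 1.03 for Cryab, without cell 48 it was -3.57 for Socs3, and without cell 54 it was 1.52 for Ier3.

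Beside Aldh1a2, Aldh1a1, another retinaldehyde dehydrogenase, was detected in 11 of 11 mesothelial-like and 25 of 37 other cells, with medians of 149.7 and 43.0 FPKM (ratio 0.76), and over all 6 retinoid genes 2 were higher and 1 lower. Of 13 proteoglycan and hyaluronan genes 4 were higher and 3 lower, and Has1, a hyaluronan synthase, was detected in 7 of 11 and 14 of 37 cells (ratio 1.74). Of 11 coagulation genes 2 were higher and 4 lower, and Pros1, which encodes the anticoagulant protein S, was detected in 3 of 11 and 21 of 37 cells (ratio -3.93). Of 8 FGF genes 1 was higher and 3 lower, of 8 lipid genes 1 and 2, of 8 myofibroblast and smooth muscle genes 3 and 4, of 5 mucosal defence genes 3 and 1, and of 7 prostaglandin genes 3 and 2. Over all genes 25.5% were higher and 27.9% lower, and no direction is read from these short lists. All 4 lower myofibroblast and smooth muscle genes passed the limit through the other lineage+ cells alone. Acta2, the actin of smooth muscle, was detected in 1 of 11 and 11 of 37 cells (ratio -3.67). Hpgd, which breaks down prostaglandins, was detected in 6 of 11 and 4 of 37 cells (ratio 2.52). Without cell 24 the ratio was 1.70 for Hpgd, and without cell 54 it was 1.00 for Has1.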
